A study of Mus musculus with 16 samples.

Results

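A set of 9 genes for endogenous protease inhibitors, chosen by name from the 49315 genes in the files, was followed in mouse neutrophils. The choice was made with earlier results of these data known, so shares of all genes given beside the set are no test of it. Of the 9 genes, 5 belong to the stefin A cluster (Stfa1, Stfa2, Stfa3, Stfa2l1 and BC100530), and the other 4 are Slpi, Serpinb1a, Wfdc17 and Wfdc21. The neutrophils were sorted from blood and lung as Ly6G+/CD11b+/CD45+ cells of male mice that were 8 to 12 weeks old. Mice were WT or αD KO, a knockout of the integrin subunit αD (CD11d, gene Itgad), both from Jackson Laboratory according to the study's methods. They were either naive (0h, no treatment) or taken 12 hours after cecal ligation and puncture (CLP), a surgical model of polymicrobial abdominal sepsis. The 8 groups of genotype, tissue and time have 3 count files each from 2 samples. Sample 1 has 2 files, named libraries 1a and 1b in what follows, and sample 2 has library 2, so n = 3 libraries per group. Nothing in the labels tells whether 1a and 1b came from separate mice, and p-values here measure only the spread between these libraries.

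Neutrophils store serine proteases in their granules, and these enzymes damage host tissue when they escape. Serpins and proteins with a whey acidic protein (WAP) domain inhibit serine proteases. Serpinb1a works inside the cell on elastase, cathepsin G and proteinase 3, and SLPI, the product of Slpi, is secreted and blocks elastase and cathepsin G. Wfdc17 and Wfdc21 encode small secreted WAP domain proteins. Stefins are small cystatins of the cytosol that block cysteine cathepsins such as B, L and S, and in the mouse the stefin A genes form a cluster of close copies that neutrophils express.

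The stefin genes lie together on chromosome 16 of GRCm38, and their sequences are shown first because the copies are alike while their RNA levels over time were not. Stfa2l1 spans chr16:36156811-36161948 on the + strand, Stfa1 chr16:36277148-36285371 on the + strand, BC100530 chr16:36359382-36367748 on the - strand, Stfa2 chr16:36403946-36408363 on the - strand and Stfa3 chr16:36450537-36455392 on the - strand. The first 60 coding bases, from the GRCm38 annotation, are given for Stfa2l1, Stfa2 and Stfa3 on the strand of each gene, with capitals for bases that do not match Stfa2l1 at the same position.
Stfa2l1: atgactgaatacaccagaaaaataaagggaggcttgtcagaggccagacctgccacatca
Stfa2: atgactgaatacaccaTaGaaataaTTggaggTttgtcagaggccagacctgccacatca
Stfa3: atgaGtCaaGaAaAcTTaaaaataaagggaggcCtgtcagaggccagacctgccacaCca
Over the whole coding sequence, Stfa2l1 and Stfa2 were 96.4% identical, and Stfa2l1 and Stfa3 were 81.6% identical.

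The counts are of uniquely mapped reads, so how far the copies share sequence bears on their values. Of all 50-base windows in the exons of Stfa2l1, 24.6% also occur in another gene, with 15.9% for Stfa2. No 100-base window of Stfa2l1 or Stfa2 occurs in another gene. For BC100530 and Stfa1, which share stretches with each other, 9.49% and 5.07% of the 100-base windows do, and 0 of the 150-base windows do. The split of reads between these copies is therefore uncertain for short read pairs. An exon of BC100530 also overlaps Gm15845 on the opposite strand, and the strand setting of the counting is not given in the sources used here.

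The 120 bases before the start site are shown for the 4 stefin genes with a RefSeq promoter (build GRCm38.p6, gene strand), since they too are close copies. Capitals mark bases that do not match Stfa2l1 in a pairwise alignment. The regions are chr16:36156691-36156810 on the + strand for Stfa2l1, chr16:36408364-36408483 on the - strand for Stfa2, chr16:36455393-36455512 on the - strand for Stfa3 and chr16:36277028-36277147 on the + strand for Stfa1.
Stfa2l1: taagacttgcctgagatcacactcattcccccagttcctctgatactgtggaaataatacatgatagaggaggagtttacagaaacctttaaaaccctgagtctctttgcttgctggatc
Stfa2: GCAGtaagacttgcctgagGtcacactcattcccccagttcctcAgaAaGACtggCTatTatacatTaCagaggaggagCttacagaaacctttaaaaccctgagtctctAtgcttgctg
Stfa3: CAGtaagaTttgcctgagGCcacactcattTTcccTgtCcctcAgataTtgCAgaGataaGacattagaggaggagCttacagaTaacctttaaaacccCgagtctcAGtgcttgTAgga
Stfa1: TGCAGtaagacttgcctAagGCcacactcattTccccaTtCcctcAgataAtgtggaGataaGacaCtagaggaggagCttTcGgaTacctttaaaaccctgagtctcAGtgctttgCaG
Over 120 bases Stfa2l1 was 83.1% identical to Stfa2, 78.2% to Stfa3 and 76.8% to Stfa1. The longest run of letters common to all 4 is ACCTTTAAAACCC, of 13 bases, which 0.0244% of 32851 RefSeq promoters of 250 bases hold on either strand. The 8 promoters that hold it include the 4 that defined it, so this share is no test of the run. The C/EBP-type letters TTNNGNAA were found in 36.8% of all promoters, 3 times in that of Slpi, 2 times in that of Wfdc17, once each in those of Stfa2l1, Stfa1 and Stfa2, and not in that of Stfa3. The STAT-type letters TTCNNNGAA were in 7.02% of all promoters and in none of these 6. Serpinb1a, Wfdc21 and BC100530 were not matched in the promoter table. A match is a description of the letters and not of a binding site.

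Slpi lies on chr2:164354070-164389095 (- strand, GRCm38) and Serpinb1a on chr13:32842092-32851185 (- strand). Wfdc17 and Wfdc21 are neighbours on chromosome 11, at chr11:83703991-83706268 and chr11:83746940-83752642, both on the + strand. Each value is the count over all exons of the gene.

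Total counts were 5753476 to 29984954 per library. The libraries 1b had totals of 5753476 to 17976890 and counts for 29162 to 38844 genes, while libraries 1a and 2 had totals of 16565779 to 29984954 and counts for 17132 to 32666 genes. The part of this in results that turn on libraries 1b was not tested. Markers of neutrophils were present in every library, with a summed level of 37076 to 309343 for 9 genes. Markers of other cells summed to 3.34 to 257 for T and NK cells (7 genes), 118 to 442 for monocytes and macrophages (12 genes), 19.4 to 1113 for B cells (6 genes), 2.48 to 528 for platelets (4 genes), 35.6 to 11803 for red cells (6 genes) and 2.21 to 1591 for lung structural cells (11 genes). Itgad goes against the labels. Its level was 2.78 to 22.6 in the 12 libraries labelled αD KO and 0.0129 to 0.812 in the 12 labelled WT. Groups are therefore called αD KO-labelled here, WT is likewise only a label, and directions between genotypes rest on the labels. Counts per gene do not tell a targeted transcript from an intact one. In αD KO-labelled lung, 3 libraries stand apart from their time label. On a scale where WT lung lies at 0 at the baseline and at 1 at 12 hours, over 1324 genes that exclude the inhibitors, αD KO-labelled lung library 2 of 0h lay at 1.03. Libraries 1a and 2 of 12h lay at 0.0968 and 0.183, while library 1b of 12h lay at 0.824. In bulk samples, fewer cells of a type and less RNA per cell cannot be told apart.

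Levels are TMM-scaled RPKM, that is counts per kilobase of exon scaled by library size with edgeR's TMM factors over all 24 libraries, so that genes and groups can both be compared. At the baseline, Slpi was the most abundant of the 9 RNAs in WT blood, WT lung and αD KO-labelled blood. In WT blood at 0h its mean level was 2914 ± 1772 (SD, n = 3), rank 13 among all genes. Wfdc17 followed with 596 ± 473, Wfdc21 with 364 ± 131 and Stfa2l1 with 226 ± 62.1. Stfa1 (36.0 ± 5.87), Serpinb1a (16.0 ± 15.1), BC100530 (5.32 ± 1.55) and Stfa2 (3.09 ± 0.482) were lower, and Stfa3 was close to 0 (0.507 ± 0.709). The order of the means was the same in WT lung at 0h, from Slpi (2410 ± 762) to Stfa3 (0.447 ± 0.134). Together the 9 genes took 0.306% to 0.932% of all counts in a library.

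**Figure D1:**
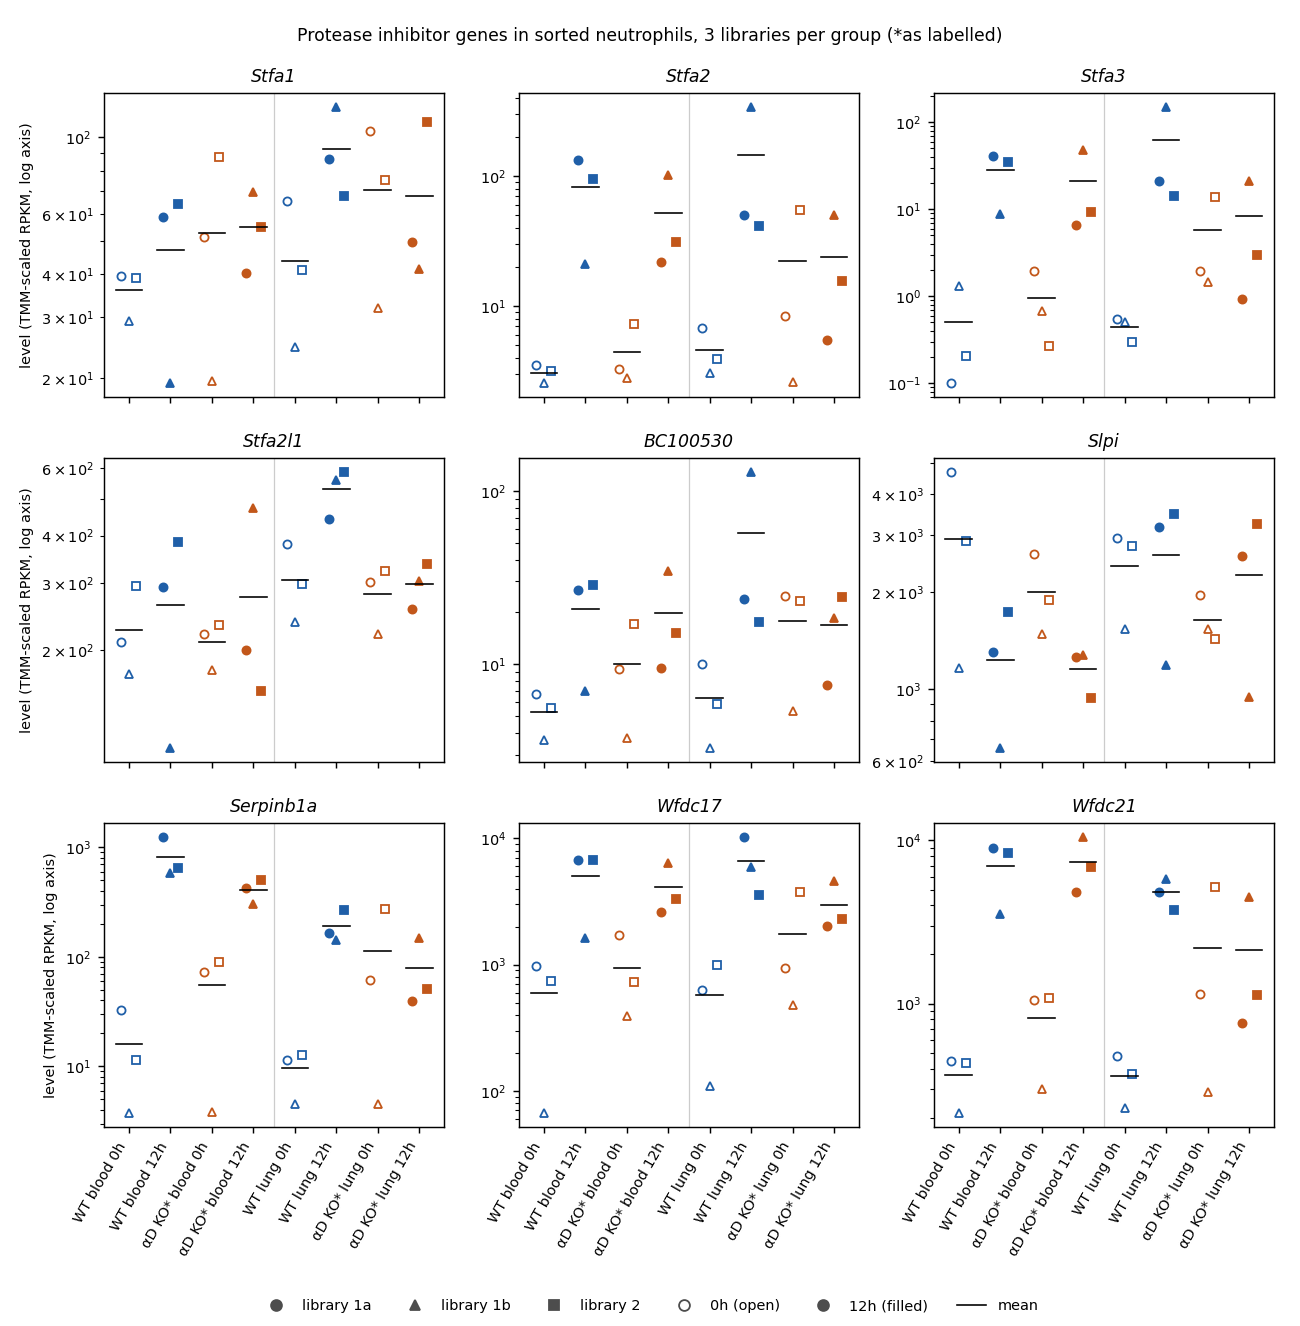
Level of each of the 9 genes (TMM-scaled RPKM, log axis) in the 8 groups, where each point is a library and the bar is the group mean. Stfa2, Stfa3, Serpinb1a, Wfdc17 and Wfdc21 spread over more than an order of magnitude between groups, while Stfa1, Stfa2l1 and Slpi stay within a range below 8-fold.

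The first comparison asked how WT blood neutrophils changed between the baseline and 12 hours post CLP. Of the 9 genes, 4 rose and 0 fell with edgeR (adjusted p under 0.05 and a log2 fold change over 1). These were Stfa2 and Stfa3 among the stefins, the intracellular serpin Serpinb1a and the WAP gene Wfdc21. Of all 14625 genes tested, 7.75% were called higher and 5.75% lower. The increases were 16.5-fold for Wfdc21, 22.0-fold for Stfa2 and 45.5-fold for Serpinb1a. Stfa3 passed the filter on low counts only through its 12 hour libraries, here and in WT lung and αD KO-labelled blood, so its presence among the genes tested already reflects the higher level at 12 hours. By contrast, the 2 most abundant stefins of the baseline, Stfa2l1 and Stfa1, had log2 fold changes of -0.03 and 0.14.

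Stfa2, a stefin that was scarce at the baseline, was at levels of 3.51, 2.57 and 3.18 in WT blood libraries 1a, 1b and 2 at 0h and 133, 21.1 and 94.5 at 12 hours. The groups did not overlap, and library 1b was the lowest at 12 hours. The rise was 22.0-fold (log2 fold change 4.46 ± 0.61 SE, edgeR adjusted p = 0.00513). Stfa3 rested on 0, 6 and 2 counts at 0h (levels 0, 1.32 and 0.204) and reached levels of 40.7, 8.77 and 35.3. It too did not overlap, and its log2 fold change of 5.70 ± 1.30 (edgeR adjusted p = 0.0275) depends on those few baseline counts. BC100530, the gene that shares windows with Stfa1, had levels of 6.75, 3.66 and 5.54 at 0h and 26.6, 6.99 and 28.7 at 12 hours. Its libraries did not overlap by a small margin, and the log2 fold change of 1.71 ± 0.49 missed the threshold (edgeR adjusted p = 0.0571). Libraries of the same number deviated from their group means together here, and a fit with that number as a block called BC100530 (log2 fold change 1.67, edgeR adjusted p = 0.011). With 3 libraries per group the block leaves few degrees of freedom, so p-values of that fit lean on the spread pooled over all genes. The share of all genes it called in WT blood is not given here, so its calls are a description.

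Stfa2l1 had levels of 210, 173 and 294 in WT blood at 0h and 292, 111 and 386 at 12 hours. Stfa1 had levels of 39.6, 29.2 and 39.2 at 0h and 58.6, 19.3 and 63.9 at 12 hours. For both, the 12 hour libraries lay on either side of the baseline libraries, with library 1b below and 1a or 2 above. The edgeR adjusted p was 0.974 for Stfa2l1 (log2 fold change -0.03 ± 0.39) and 0.835 for Stfa1 (0.14 ± 0.38). Changes well beyond these errors could also go uncalled, as that of BC100530 did in this comparison at 1.71 ± 0.49.

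Serpinb1a, the cell's own inhibitor of granule serine proteases, had levels of 32.9, 3.72 and 11.4 in WT blood at 0h and 1248, 577 and 641 at 12 hours. Every 12 hour library was more than an order of magnitude above every baseline library. The rise was 45.5-fold (log2 fold change 5.51 ± 0.82, edgeR adjusted p = 0.00714). The 9 markers of immature neutrophils are granule genes such as Elane, Mpo, Camp, Ltf and Lcn2. None of the 9 was at 0 in all libraries of a group. Their summed level moved the same way as Serpinb1a, from 122 to 4817 at 0h to 51282 to 124107 at 12 hours. B cell markers summed to 144 to 662 at 0h and 22.2 to 197 at 12 hours, and platelet markers to 32.5 to 81.2 and then 3.79 to 26.0. The part of these markers in the results for the 9 genes was not tested.

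The 3 WAP genes did not move alike in WT blood. Wfdc21 was at 444, 213 and 435 at 0h and 8962, 3557 and 8423 at 12 hours, which is 16.5-fold higher (log2 fold change 4.04 ± 0.48, edgeR adjusted p = 0.00348). Wfdc17 was at 976, 66.3 and 747 at 0h and 6707, 1629 and 6693 at 12 hours. Library 1b was the lowest in both groups, and the groups did not overlap. Its log2 fold change of 2.88 ± 0.89 missed the threshold (edgeR adjusted p = 0.0724), and the fit with the block called it (3.39, edgeR adjusted p = 1.57e-06). The limits given above for that fit hold here, and the small p-value is no measure of replication. Slpi ran in the other direction without passing the test. Its levels were 4704, 1161 and 2876 at 0h and 1301, 657 and 1729 at 12 hours, and the groups overlapped (log2 fold change -1.44 ± 0.54, edgeR adjusted p = 0.121). When library totals replaced the TMM factors, Slpi passed the threshold as a fall (-1.76, edgeR adjusted p = 0.0153) and Stfa3 was no longer called (4.81, edgeR adjusted p = 0.0815). On that scale the median of all genes tested was -0.60, beside -0.15 with TMM factors.

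In WT blood, 6 of the 9 genes were higher at 12 hours without overlap and 0 were lower, against 22.1% and 12.7% of all genes tested. DESeq2 called 6 genes higher and Slpi lower, where it called 12.0% and 10.7% of all genes. The edgeR calls, over all genes as for these 9, depended on single libraries. With all libraries 13.5% of all genes were called. Without 0h library 2, 12h library 1a or 12h library 2, this share was 0.255%, 0.102% and 0.00999%, and 0 of the 9 genes were called. Without 0h library 1a it was 0.811%, and Serpinb1a was called as 1 of the 9. In these and the other omissions the log2 fold changes stayed between 4.06 and 4.79 for Stfa2, 5.16 and 7.83 for Stfa3, 5.07 and 6.56 for Serpinb1a and 3.83 and 4.27 for Wfdc21.

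**Figure D2:**
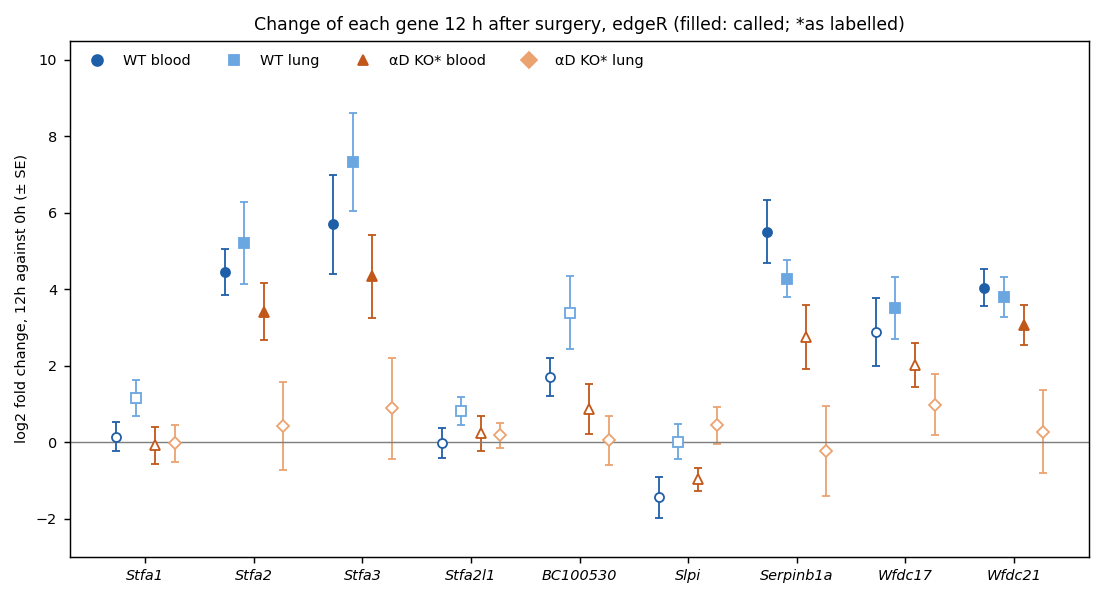
Log2 fold change at 12 hours against 0h (edgeR, ± SE) of each gene in WT blood, WT lung, αD KO-labelled blood and αD KO-labelled lung, filled where called. Stfa2, Stfa3 and Wfdc21 are called in all but αD KO-labelled lung, where the 9 values lie between -0.23 and 0.98.

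The same question was asked of neutrophils in WT lung. Of the 9 genes, 5 rose and 0 fell with edgeR, while 5.24% of 14859 genes tested were called higher and 3.78% lower. The called genes were Stfa2, Stfa3, Serpinb1a, Wfdc17 and Wfdc21. All 9 log2 fold changes were above 0 with TMM factors, though the sign for Slpi and Stfa2l1 changed on other scales, and they ran from 0.01 for Slpi to 7.33 for Stfa3, with a median of 3.51 beside 0.03 over all genes tested.

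Stfa2 was at 6.83, 3.05 and 3.92 in WT lung at 0h and 49.96, 343 and 41.2 at 12 hours. Stfa3 was at 0.546, 0.501 and 0.295 at 0h, from 6, 4 and 3 counts, and at 21.4, 151 and 14.1 at 12 hours. For both genes the groups did not overlap and library 1b of 12h was several times above the other two. The log2 fold changes were 5.22 ± 1.07 for Stfa2 (edgeR adjusted p = 0.026) and 7.33 ± 1.28 for Stfa3 (edgeR adjusted p = 0.0169). Without WT lung 12h library 1b they were 2.99 and 4.93, and both were still called, where 25.3% of all genes were. BC100530 was at 10.1, 3.26 and 5.89 at 0h and 23.8, 129 and 17.4 at 12 hours, with the same library far above the rest. It was not called (log2 fold change 3.39 ± 0.95, edgeR adjusted p = 0.0618). Without that library the value was 1.39 and the gene was called, in the same fit that called 25.3% of all genes.

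Stfa1 and Stfa2l1, the 2 stefins that lead at the baseline, had smaller differences in lung than Stfa2 and Stfa3. Stfa1 was at 65.5, 24.7 and 41.2 at 0h and 86.8, 123 and 67.6 at 12 hours. Stfa2l1 was at 381, 237 and 298 at 0h and 441, 558 and 588 at 12 hours. Neither gene's libraries overlapped and neither passed the test (log2 fold change 1.15 ± 0.48, edgeR adjusted p = 0.168 for Stfa1, and 0.81 ± 0.36, edgeR adjusted p = 0.2 for Stfa2l1). With a single library left out they lay between 0.517 and 1.53 for Stfa1 and 0.441 and 0.995 for Stfa2l1. On the TPM scale, where the median of all genes tested shifted by -0.59 (log2) between these groups, the difference was 0.16 for Stfa1 and -0.18 for Stfa2l1, so the sign for Stfa2l1 depends on the scale.

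Serpinb1a was at 11.4, 4.54 and 12.7 in WT lung at 0h and 165, 142 and 265 at 12 hours, without overlap and 19.4-fold higher (log2 fold change 4.28 ± 0.49, edgeR adjusted p = 0.00504). Immature neutrophil markers summed to 231 to 1208 at 0h and 18773 to 53511 at 12 hours beside it, and B cell markers to 262 to 453 and then 19.4 to 93.0. Their part in the results was not tested. Wfdc21 was at 476, 228 and 371 and then 4830, 5823 and 3746 (3.79 ± 0.52, edgeR adjusted p = 0.00821). Wfdc17 was at 625, 109 and 989 and then 10307, 5889 and 3569 (3.51 ± 0.82, edgeR adjusted p = 0.0365). Both WAP genes were higher in every 12 hour library than in any baseline library. Slpi did not follow them. It was at 2927, 1535 and 2770 at 0h and 3164, 1190 and 3470 at 12 hours, and library 1b was the lowest in both groups. Its log2 fold change was 0.01 ± 0.46 (edgeR adjusted p = 0.996), and it was -0.59 with library totals and -0.96 on the TPM scale, so its direction in lung cannot be given.

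In WT lung, 8 of the 9 genes were higher and 0 lower without overlap, against 12.2% and 16.3% of all genes tested. DESeq2 called 4 higher and 0 lower, against 10.1% and 7.53% of all genes, and gave no p for Stfa2 and BC100530, which its check for outlying counts removed. As in blood, the calls over all genes depended on single libraries. With all libraries 9.02% of all genes were called. Without WT lung 0h library 1a, 0h library 2 or 12h library 1a this share was 0.0%, and without 12h library 2 it was 0.122%. In these 4 omissions 0 of the 9 genes were called, and without 0h library 1b, where 5.03% of all genes were, Stfa2 and Stfa3 lost their calls, with log2 fold changes from 3.83 to 4.49 for Serpinb1a, 2.97 to 4.12 for Wfdc17 and 3.27 to 4.04 for Wfdc21 over all single libraries left out.

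In αD KO-labelled blood, 3 of the 9 genes rose and 0 fell at 12 hours with edgeR, beside 3.75% of 14156 genes called higher and 4.99% lower. They were Stfa2, Stfa3 and Wfdc21, 3 of the 4 genes called in WT blood. Serpinb1a, the fourth, was higher in all libraries but missed the threshold.

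Stfa2 was at 3.28, 2.83 and 7.27 at 0h and 22.1, 103 and 31.2 at 12 hours (log2 fold change 3.41 ± 0.74, edgeR adjusted p = 0.0321). Stfa3 was at 1.94, 0.684 and 0.270 and then 6.58, 48.0 and 9.18 (4.34 ± 1.09, edgeR adjusted p = 0.0465). Wfdc21 was at 1057, 301 and 1087 and then 4832, 10535 and 6846 (3.07 ± 0.53, edgeR adjusted p = 0.014). All 3 were without overlap, and library 1b was the highest of each at 12 hours, where in WT blood it had been the lowest. Serpinb1a was at 72.8, 3.84 and 90.4 at 0h and 428, 305 and 499 at 12 hours (2.76 ± 0.84, edgeR adjusted p = 0.0753). Wfdc17 was at 1722, 394 and 723 and then 2621, 6418 and 3291 (2.01 ± 0.57, edgeR adjusted p = 0.0624). Neither overlapped. Libraries 1a and 2 of 0h held more Serpinb1a than any WT blood library of 0h, and the immature markers summed to 255 to 13547 in this group, with the lowest sum in library 1b. At 12 hours they summed to 23293 to 83941. B cell markers summed to 185 to 1113 at 0h and 21.1 to 85.9 at 12 hours, and platelet markers to 19.8 to 528 and then 4.44 to 35.8. The part of these markers in the results was not tested.

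Slpi was at 2627, 1483 and 1881 in αD KO-labelled blood at 0h and 1255, 1275 and 942 at 12 hours. All 3 of the 12 hour libraries were lower, and the test was missed (log2 fold change -0.98 ± 0.31, edgeR adjusted p = 0.0847). With library totals in place of TMM factors it was called (-1.35, edgeR adjusted p = 0.0205), and Stfa3 lost its call (3.98, edgeR adjusted p = 0.0506). The median of all genes tested was then -0.52, beside -0.14 with TMM factors. BC100530 was at 9.31, 3.75 and 17.1 and then 9.48, 34.4 and 15.1, Stfa1 at 51.4, 19.6 and 87.8 and then 40.4, 69.6 and 54.8, and Stfa2l1 at 220, 178 and 233 and then 200, 473 and 156. These 3 stefins overlapped between the times, with edgeR log2 fold changes of 0.86 ± 0.65, -0.08 ± 0.49 and 0.23 ± 0.46.

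In αD KO-labelled blood, 5 genes were higher and 1, Slpi, was lower without overlap, against 17.7% and 14.5% of all genes tested. DESeq2 called 5 genes higher and 0 lower, against 5.59% and 6.7% of all genes. The edgeR calls of the stefins depended on single libraries. Stfa3 was called in 0 of the 6 fits that leave out a library, with log2 fold changes of 2.80 to 5.38. Stfa2 was called in 1 of them, the fit without 12h library 1b, with log2 fold changes of 2.36 to 3.98. Wfdc21 was called in 4, all but those without 0h library 1a or 12h library 2. Over all genes the share called was 0.456% without 0h library 1a, 0.973% without 12h library 2 and at most 8.74% in the others. Without library 1b of both times, where 11% of all genes were called, Stfa2 (2.13, edgeR adjusted p = 0.0715) and Stfa3 (2.65, edgeR adjusted p = 0.128) were not called, and Wfdc21, Serpinb1a and Slpi were.

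In αD KO-labelled lung, 0 of the 9 genes were called at 12 hours by edgeR or DESeq2, and 0 had an unadjusted edgeR p under 0.05, where 0.401% of all genes did. The background was 0.0% in both directions, so the 9 genes do not stand out from the rest. None of the 9 was without overlap, where 0.937% of all genes were higher and 1.93% lower. The libraries within each time were far apart. Serpinb1a was at 61.1, 4.52 and 275 at 0h and 39.8, 148 and 50.9 at 12 hours. Stfa2 was at 8.49, 2.64 and 55.4 and then 5.48, 50.7 and 15.8. Stfa3 was at 1.95, 1.44 and 13.8 and then 0.937, 21.0 and 2.97. In all 3 genes, library 2 was the highest at 0h and library 1b the highest at 12 hours, the libraries that lay nearest to the 12 hour side of the WT scale.

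Wfdc21 was at 1145, 289 and 5184 at 0h and 757, 4528 and 1128 at 12 hours, and Wfdc17 at 938, 482 and 3789 and then 2005, 4554 and 2293. The same libraries were the highest. Slpi was at 1954, 1531 and 1434 and then 2585, 943 and 3233, with library 1b the lowest at 12 hours. Stfa1 (105, 32.0 and 75.1, then 49.8, 41.6 and 111), Stfa2l1 (301, 221 and 322, then 257, 304 and 336) and BC100530 (24.6, 5.36 and 23.2, then 7.54, 18.4 and 24.3) overlapped. Immature neutrophil markers summed to 331 to 50186 at 0h, highest in library 2, and 5286 to 15176 at 12 hours.

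Without the 3 libraries that stand apart, 2 libraries of 0h and 1 of 12h were left. The 3 were set aside for their place on the time scale, and a single library has no spread of its own, so the values that follow are a description with no test of the time change. The log2 fold changes were 3.22 for Stfa2, 3.68 for Stfa3, 2.75 for Wfdc17, 2.71 for Wfdc21 and 2.21 for Serpinb1a. Whether the 3 libraries carry the wrong time was not tested.

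**Figure D3:**
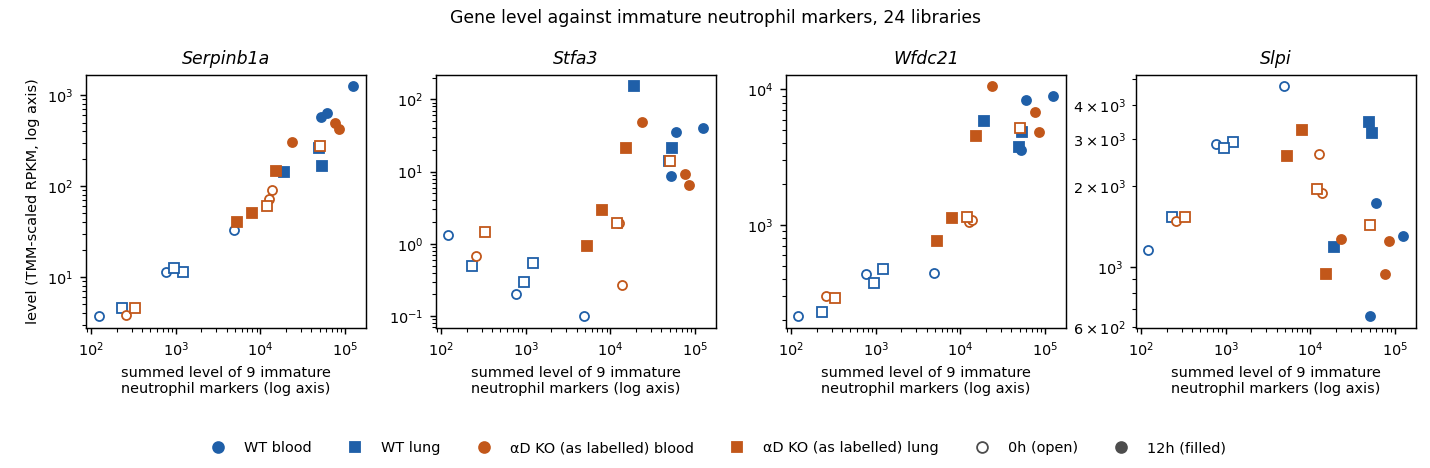
Level of Serpinb1a, Stfa3, Wfdc21 and Slpi (TMM-scaled RPKM, log axis) against the summed level of 9 immature neutrophil markers (log axis) in the 24 libraries. Serpinb1a runs from 3.72 to 1248 over the marker range of 122 to 124107, with its low libraries at low sums, while Slpi stays between 657 and 4704.

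The makeup of each family was compared on levels, as shares within a library. Stfa2 and Stfa3 together made up 0.9898% to 1.85% of the summed level of the 5 stefins in WT blood at 0h and 17.9% to 31.5% at 12 hours. In WT lung the shares were 1.21% to 1.59% and 7.59% to 37.9%, and in αD KO-labelled blood 1.72% to 2.18% and 10.3% to 20.8%. No share at 12 hours overlapped with the baseline in these 3 settings. In αD KO-labelled lung the shares were 2.37%, 1.56% and 14.1% at 0h and 2.00%, 16.5% and 3.83% at 12 hours, which overlapped. Stfa2l1 remained the largest part of the family, with 42.8% or more of the sum in every library.

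Slpi was 70.9% to 80.6% of the summed level of Slpi, Wfdc17 and Wfdc21 in WT blood at 0h and 7.66% to 11.2% at 12 hours. In WT lung it was 67.1% to 82.0% and then 9.22% to 32.2%, and in αD KO-labelled blood 48.6% to 68.1% and then 6.99% to 14.4%. In these 3 settings no share at 12 hours overlapped with the baseline, and in library 2 of WT lung at 12 hours Slpi was still close to the other WAP genes in level. The summed level of the 3 genes was 1440 to 6124 in WT blood at 0h and 5843 to 16970 at 12 hours. In αD KO-labelled lung, Slpi was 48.4%, 66.5% and 13.8% at 0h and 48.3%, 9.41% and 48.6% at 12 hours. These shares do not depend on the scaling between libraries.

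**Figure D4:**
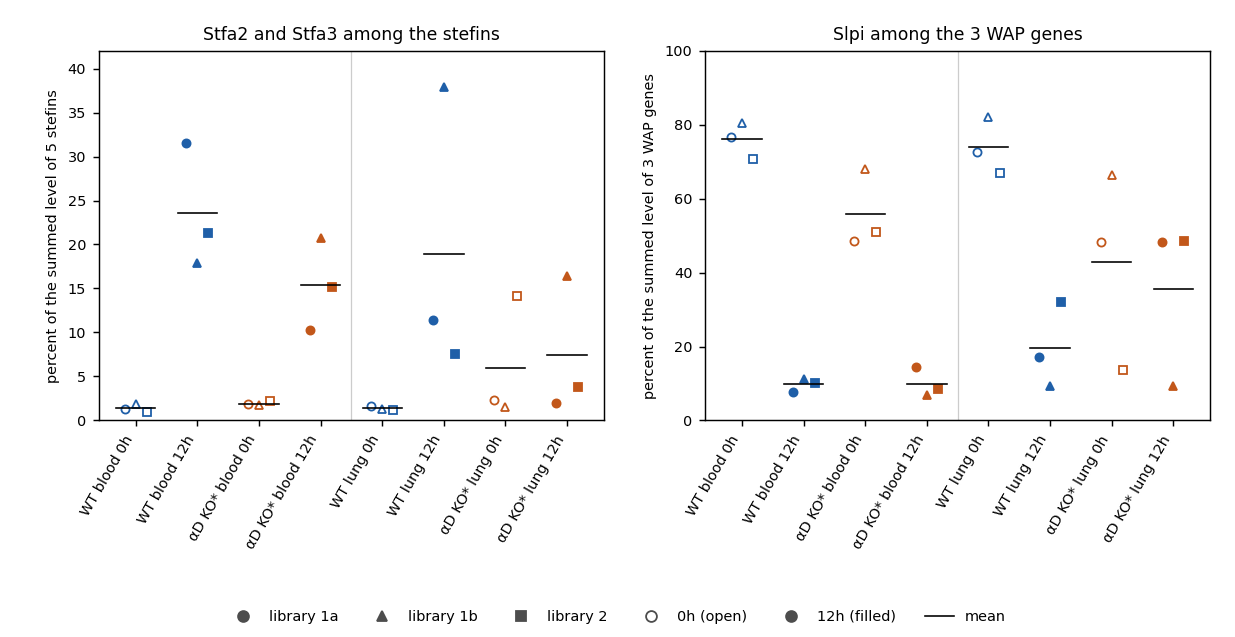
Percent of the summed stefin level given by Stfa2 and Stfa3 (left) and percent of the summed level of Slpi, Wfdc17 and Wfdc21 given by Slpi (right), each point a library and each bar a group mean. At 12 hours WT blood lies at 17.9% to 31.5% on the left and 7.66% to 11.2% on the right, away from its baseline libraries.

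The comparison of genotypes asked whether the 9 genes differed between αD KO-labelled and WT neutrophils in the same tissue at the same time. EdgeR and DESeq2 called 0 of the 9 genes in each of the 4 comparisons. EdgeR called 0.0115% of all genes higher in blood at 0h and 0.0% in every other direction and comparison. DESeq2 called 0.00944% higher and 0.00236% lower in blood at 0h, 0.0344% and 0.0861% in blood at 12 hours, 0.0116% and 0.00465% in lung at 0h, and 0.547% and 0.857% in lung at 12 hours. At an unadjusted edgeR p under 0.05 there was 1 gene in blood at 0h (0.709% of all genes), 1 in blood at 12 hours (4.01%), 4 in lung at 0h (1.86%) and 0 in lung at 12 hours (8.29%).

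In blood at 0h the gene with the smallest p was Wfdc21, with a log2 fold change of 1.12 ± 0.43 (edgeR adjusted p = 1). None of the 9 genes was without overlap there, where 1.85% of all genes were higher and 1.14% lower. In blood at 12 hours it was Serpinb1a. Its αD KO-labelled libraries (428, 305 and 499) all lay below those of WT (1248, 577 and 641), where 4.55% of all genes were lower and 3.38% higher without overlap (log2 fold change -0.99 ± 0.31, edgeR adjusted p = 0.962). The other 8 genes in blood at 12 hours had log2 fold changes of -0.47 to 0.32. Libraries 1b moved these values too. Without library 1b of either group, all 9 were below 0, among them Stfa2 (-2.07, edgeR adjusted p = 0.0505), Stfa3 (-2.25, edgeR adjusted p = 0.0534), Wfdc17 (-1.16, edgeR adjusted p = 0.0712) and BC100530 (-1.15, edgeR adjusted p = 0.136). None was called, where 0.224% of all genes were, and 6 had an unadjusted p under 0.05, where 20.4% of all genes did.

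In lung at 0h, Stfa3 (log2 fold change 3.5 ± 1.13), Serpinb1a (3.44 ± 1.19), Wfdc21 (2.5 ± 0.89) and BC100530 (1.44 ± 0.60) had an unadjusted edgeR p under 0.05, and each had an adjusted p of 0.983. Stfa3 passed the filter here only through its αD KO-labelled libraries, with 0 of the 3 WT libraries over the cutoff, so its place among these 4 already reflects its higher level there. Its libraries did not overlap, where 2.12% of all genes were higher and 4.73% lower without overlap. Immature neutrophil markers summed to 331 to 50186 in αD KO-labelled lung and 231 to 1208 in WT lung at 0h, and red cell markers to 2473 to 4596 and 115 to 1244, the latter without overlap. Their part in these values was not tested. Without the 3 libraries that stand apart, these 4 values were 1.94, 1.85, 1.07 and 1.29, given as a description. In lung at 12 hours all 9 log2 fold changes were below 0 with TMM factors, while Slpi was above 0 with library totals and on the TPM scale and Stfa1 on the TPM scale. They had a median of -0.95 beside 0.13 over all genes tested. They ran from -2.85 ± 1.39 for Stfa3 (edgeR adjusted p = 0.613) to -0.01 ± 0.56 for Slpi (edgeR adjusted p = 0.997). Only Stfa2l1 was lower without overlap (257, 304 and 336 against 441, 558 and 588), where 5.48% of all genes were lower and 4.52% higher.

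The genotype result in lung at 12 hours depended on the libraries 1b. Without library 1b of either group, 2 against 2, edgeR called Stfa2 (log2 fold change -1.96, adjusted p = 0.01), Stfa3 (-3.0, adjusted p = 0.00389), Serpinb1a (-2.11, adjusted p = 0.00145), Wfdc17 (-1.53, adjusted p = 0.0333) and Wfdc21 (-2.04, adjusted p = 0.00233) lower, together with 30.1% of all genes in either direction. The αD KO-labelled libraries left in that fit are 1a and 2 of 12h, both of which stand apart from their time label. With library 1b as the only αD KO-labelled library against the 3 of WT, the log2 fold changes of these 5 were -1.37 for Stfa2, -1.42 for Stfa3, -0.06 for Serpinb1a, -0.22 for Wfdc17 and 0.18 for Wfdc21, a description with no test. Immature neutrophil markers summed to 5286 to 15176 in αD KO-labelled lung and 18773 to 53511 in WT lung at 12 hours, without overlap, and their part in these values was not tested.

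The difference between genotypes in the 12 hour change was tested as an interaction. EdgeR called 0 of the 9 genes in blood and in lung, and 0.0% of all genes in both. At an unadjusted p under 0.05 there were 0 of the 9 genes in blood, where 1.17% of all genes were, and 5 in lung, where 2432 of 23211 genes were. Without library 1b of every group, 7 of the 9 passed that p in blood, where 10.7% of all genes did. They included Wfdc21 (-1.82, edgeR adjusted p = 0.174), Stfa2 (-2.71, edgeR adjusted p = 0.244), Stfa3 (-5.57, edgeR adjusted p = 0.258) and Serpinb1a (-2.83, edgeR adjusted p = 0.259), and neither they nor any other gene were called. In lung without library 1b, 6 of the 9 passed that p, where 29.7% of all genes did, and edgeR called some of them, as counted in the closing section. Both αD KO-labelled lung libraries of 12h left there stand apart from their time label. With all libraries, DESeq2 called Stfa3 and Serpinb1a in lung, where the change was smaller in αD KO-labelled mice, beside 1.85% of all genes called in that direction and 2.7% in both. The edgeR values were -6.40 ± 1.87 for Stfa3 and -4.54 ± 1.41 for Serpinb1a (adjusted p = 0.41 for each). Without the 3 libraries that stand apart they were -3.49 and -1.89. Those libraries were set aside for their place between the times and 1 library of 12h was left, so these 2 values are no test.

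Lung neutrophils were compared with blood neutrophils of the same genotype and time. EdgeR called 0 of the genes in all 4 comparisons, and 0.0% to 0.0548% of all genes in each direction. At an unadjusted edgeR p under 0.05 there were 4 genes in WT at 12 hours (18.1% of all genes), 2 in αD KO-labelled mice at 12 hours (22.2%), and 0 at 0h (2.54% and 2.91%). Stfa3 had too few counts to be tested in WT at 0h. In WT at 0h, the log2 fold changes of the 8 genes tested lay between -0.79 for Serpinb1a and 0.43 for Stfa2. DESeq2 called 0 of the inhibitor genes under study at 0h in WT, where it called 0.187% of all genes higher and 0.13% lower. In αD KO-labelled mice at 0h it also called 0 of them, where it called 0.387% of all genes higher and 0.252% lower.

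At 12 hours, Serpinb1a was lower in lung than in blood for both genotype labels by DESeq2 and not by edgeR. In WT, lung libraries held 165, 142 and 265 and blood libraries 1248, 577 and 641, without overlap (16.3% of all genes were lower without overlap). The log2 fold change was -2.0 ± 0.41 (edgeR adjusted p = 0.114, DESeq2 adjusted p = 0.000291, where DESeq2 called 1.56% of all genes lower). Libraries of the same number deviated together here too, and the fit with the block, whose p-values have the limits given above, called it (log2 fold change -2.01, edgeR adjusted p = 0.0272). In αD KO-labelled mice, lung held 39.8, 148 and 50.9 and blood 428, 305 and 499 (log2 fold change -2.03 ± 0.63, edgeR adjusted p = 0.133, DESeq2 adjusted p = 0.011). DESeq2 called 2.34% of all genes lower there. With a single library left out, the log2 fold change lay between -3.12 and -1.72. With αD KO-labelled lung library 1b alone against the 3 blood libraries it was -1.34, a description with no test. Immature neutrophil markers summed to 18773 to 53511 in WT lung and 51282 to 124107 in WT blood at 12 hours. In αD KO-labelled mice they summed to 5286 to 15176 in lung and 23293 to 83941 in blood, without overlap. Their part in the differences was not tested.

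Stfa1 and Stfa2l1 were higher in WT lung than in WT blood at 12 hours without overlap, where 6.1% of all genes were. The log2 fold changes were 1.24 ± 0.51 for Stfa1 (edgeR adjusted p = 0.254) and 1.22 ± 0.45 for Stfa2l1 (edgeR adjusted p = 0.221), so neither was called. Slpi was at 1.13 ± 0.42 (edgeR adjusted p = 0.225). Lung structural markers summed to 41.0 to 645 in WT lung and 4.24 to 4.56 in WT blood at 12 hours, and their part in these differences was not tested. Wfdc21 was lower in lung without overlap in αD KO-labelled mice at 12 hours, where 18.4% of all genes were (-1.46 ± 0.79, edgeR adjusted p = 0.302). With a single library left out its value lay between -2.96 and -1.08. Without αD KO-labelled lung library 1b, edgeR called Wfdc21 and Serpinb1a lower and Slpi higher, beside 11.2% of all genes. The lung libraries left in that fit, 1a and 2, both stand apart from their time label. Without library 1b of each group, edgeR called 5 genes in WT at 12 hours, with Slpi higher in lung (1.10, adjusted p = 0.0292) and Serpinb1a, Stfa2, Stfa3 and Wfdc21 lower, beside 28.2% of all genes. This turned the direction of both stefins. Stfa2 was at 1.33 ± 1.01 (edgeR adjusted p = 0.498) with all libraries and -1.35 (edgeR adjusted p = 0.0107) without 1b, and Stfa3 at 1.66 ± 1.03 (edgeR adjusted p = 0.413) and -1.14 (edgeR adjusted p = 0.042). Whether the 12 hour change differed between lung and blood was tested too, and edgeR and DESeq2 called 0 of the 9 genes in both genotypes. EdgeR called 0.0% of all genes in each. DESeq2 called 0.45% higher and 0.221% lower in WT, and 1.37% and 0.36% in αD KO-labelled mice. At an unadjusted edgeR p under 0.05 there were 0 of the 9 genes in WT (5.49% of all genes) and 3 in αD KO-labelled mice (10.6%).

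Ordered by mean level over the 8 groups, most neighbouring groups were not apart for any of the 9 genes. The exceptions were Stfa2l1, whose level in WT lung at 12 hours (529 ± 77.6) lay above the next group without overlap, and Serpinb1a, whose level went down without overlap from WT blood at 12 hours (822 ± 370) to αD KO-labelled blood at 12 hours (410 ± 98.1) and to WT lung at 12 hours (191 ± 65.7). Stfa2 and Stfa3 were highest in WT lung at 12 hours, at 145 ± 172 and 62.2 ± 77.1, where library 1b carried most of the mean.

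Other proteases and protease inhibitors were taken from 7 lists of 75 genes, of which 70 are in the files. The lists reach beyond the enzymes that the 9 inhibitors are known to block, since they also hold metalloproteases and aspartic cathepsins. In WT blood at 12 hours, 9 of the 41 genes tested rose and 2 fell with edgeR, where 7.75% of all genes were higher and 5.75% lower, with a median log2 fold change of 0.66 beside -0.15 over all genes tested. Among 8 metalloproteases 4 rose, including Mmp8, the neutrophil collagenase, and Mmp14, a membrane-bound enzyme (log2 fold change 5.11 ± 1.10, edgeR adjusted p = 0.0235), which had 2 of its 3 baseline libraries over the cutoff of the filter on low counts. Of the 3 serine protease genes tested, edgeR called Ctsc, which activates granule serine proteases, and DESeq2 called all 3. Of the 10 cathepsins tested, 0 rose with edgeR (2 had an unadjusted p under 0.05 in either direction, where 28.8% of all genes did, and DESeq2 called 2, where it called 22.8% of all genes) and Ctsa, a lysosomal carboxypeptidase, fell (-2.60 ± 0.48, edgeR adjusted p = 0.0147).

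Among the other inhibitors in WT blood, 3 of 9 serpins rose, led by Serpine2, an inhibitor of thrombin and plasmin. It was at 0.144, 0.382 and 0.234 at 0h and 14.9, 8.51 and 8.46 at 12 hours, without overlap (log2 fold change 5.18 ± 0.51, edgeR adjusted p = 0.0021). Of 6 other cystatins, Cst3, the secreted cystatin C, fell (-1.89 ± 0.46, edgeR adjusted p = 0.034). EdgeR called 1 of the 6 and DESeq2 2, and 4 had an unadjusted edgeR p under 0.05, beside the same shares of all genes as for the cathepsins. The fall of Cst3 ran from levels of 1135, 334 and 846 to 260, 147 and 306.

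In WT lung, 10 of 48 genes tested rose and 1 fell, where 5.24% of all genes were higher and 3.78% lower, with a median of 1.00 beside 0.03. Of the 6 other cystatins, edgeR called 2 as higher and DESeq2 called 3. The 2 were Cstb, which encodes stefin B, and Cst7, which encodes cystatin F, an inhibitor inside endosomes and lysosomes. Cst7 was at 0.0380, 0.209 and 0.205 at 0h and 30.4, 3.41 and 3.83 at 12 hours, and it passed the filter on low counts only through the 12 hour libraries. Ctsc was at 3.36, 2.88 and 3.62 and then 49.0, 37.4 and 47.5, with little spread in each group (3.73 ± 0.32, edgeR adjusted p = 0.00383). Mmp19 was called higher, with 1 of its 3 baseline libraries over the cutoff of that filter, and Ctsa fell (-2.42 ± 0.37, edgeR adjusted p = 0.0119).

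In αD KO-labelled blood, 5 of 40 genes rose and 3 fell, where 3.75% of all genes were higher and 4.99% lower, with a median of 0.01 beside -0.14. Those that rose included Mmp14, with 1 of its 3 baseline libraries over the cutoff of the filter, Serpine2 (3.07 ± 0.44, edgeR adjusted p = 0.00761) and Reck, a membrane-bound inhibitor of metalloproteases (2.40 ± 0.40, edgeR adjusted p = 0.012). Ctsa (-2.07 ± 0.38, edgeR adjusted p = 0.0187), Cst3 (-1.32 ± 0.29, edgeR adjusted p = 0.0322) and Serpinb9, an inhibitor of granzyme B, fell. Serpinb9 was at 0.577, 0.161 and 5.36 at 0h, so library 2 carried its mean, and it passed the filter only through the baseline libraries. In αD KO-labelled lung, edgeR and DESeq2 called 0 of 53 genes, with 2 at an unadjusted edgeR p under 0.05 (0.401% of all genes). Both tools called 0 between genotypes, with 0 to 9 genes at that p (0.709% to 8.29% of all genes). Between tissues edgeR called 0, with 0 to 15 at that p (2.54% to 22.2% of all genes), and DESeq2 called 0 in WT and 5 in αD KO-labelled mice at 0h (0.317% and 0.639% of all genes), and 9 in each at 12 hours (7.23% and 7.35%).

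**Figure D5:**
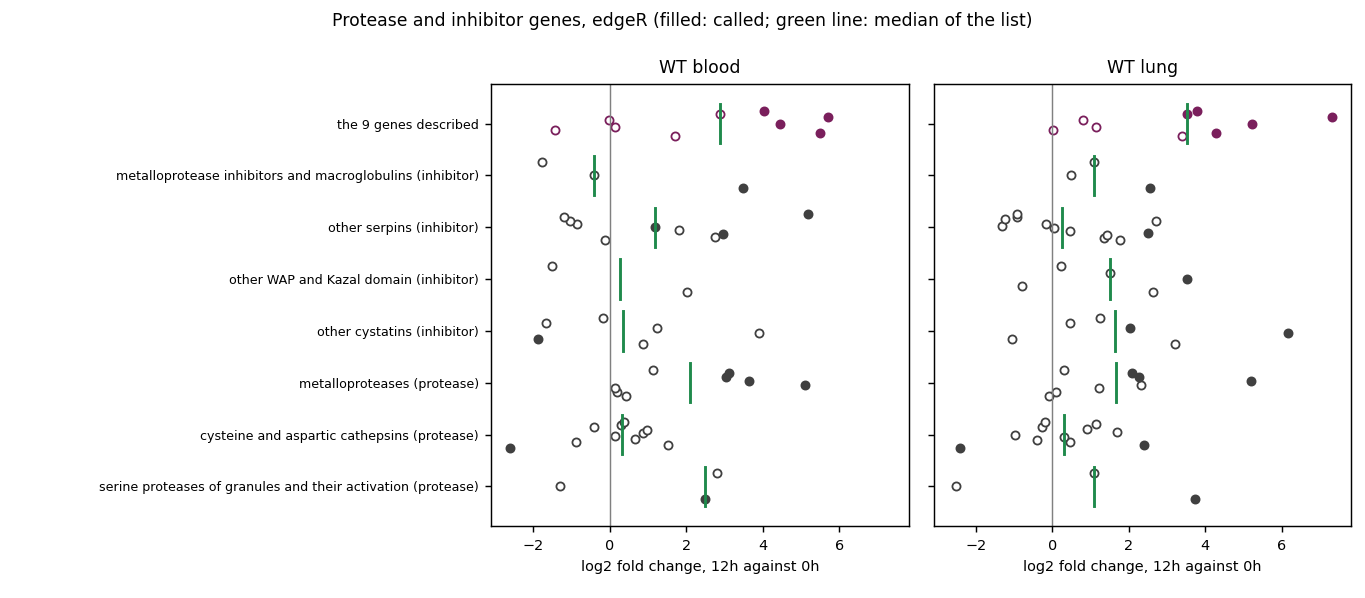
Log2 fold change at 12 hours against 0h (edgeR) of the genes tested in the 7 protease and inhibitor lists and of the 9 genes described, in WT blood (left) and WT lung (right), filled where called, with the median as a green line. The 9 genes have medians of 2.88 and 3.51, and the lists together 0.66 and 1.00. Genes and lists were chosen with earlier results of these data known.

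The genes with the most similar pattern over the 8 groups were looked up among 5546 genes with a mean TPM of at least 10, by the mean absolute difference of centred group means of log2(TPM + 1). For Serpinb1a they were Itgb2l (0.20), Cd177 (0.226) and Flot2 (0.284). For Stfa3 they were Lcn2 (0.237), Upp1 (0.261) and Mfsd7a (0.266), and for Stfa2 Qsox1 (0.249), Sod2 (0.282) and Crispld2 (0.290). Lcn2 encodes the iron-scavenging lipocalin of neutrophil granules and is among the immature neutrophil markers summed above, and Cd177 encodes a neutrophil surface protein. Wfdc21 was closest to Lbp (0.171), Scamp1 (0.197) and Apmap (0.205), and Wfdc17 to Lrg1 (0.273), Acvrl1 (0.305) and Csf2rb2 (0.327). Slpi was closest to Atf7ip (0.0843), Mical1 (0.0943) and Ppm1d (0.101), BC100530 to Cdc42ep2 (0.193), Ier3 (0.194) and Plagl2 (0.207), Stfa1 to Sbno2 (0.106), Kctd2 (0.116) and Pi4k2a (0.123), and Stfa2l1 to Vav3 (0.0646) and Stk11 (0.0743). Among the 9 genes themselves, Stfa2 and Stfa3 differed by 0.36 and Stfa1 and Stfa2l1 by 0.211.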

How the data were processed

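RNA of sorted neutrophils was sequenced by the authors after full-length cDNA amplification. The submitters' processing notes name Trimmomatic 0.36, STAR 2.5.2b and GRCm38. The deposited values are raw counts per gene of unique reads in exons, with no normalization, in 24 files for 49315 genes. The counting tool and strand setting are not given in the sources used here. Symbols were found for 48970 gene identifiers, and 44823 genes had the same coordinates in GENCODE M21.

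The 9 genes and all lists were chosen with earlier results of these data known. Every gene was fitted, in R 4.3.3, with edgeR 4.0.16 (TMM factors, filterByExpr, a two-sided quasi-likelihood F test) on the groups compared, with Benjamini-Hochberg adjustment over all genes tested. A gene was called where its adjusted p was under 0.05 and its log2 fold change beyond 1 in either direction, and interactions on all 4 groups at the adjusted p alone. SE is that of the log2 fold change. DESeq2 1.42.0 was an alternative, with RLE factors, other filters, all groups in a single fit, summed files of sample 1, libraries left out and a library block. Library totals and TPM were added after seeing the data. TMM-scaled RPKM replaced the planned TPM as the level, because TPM moved the median of all genes by -0.54 (log2) in WT blood. An exact permutation test of 3 against 3 cannot go below p = 0.1. Scripts were tested on simulated data.

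Libraries 1a and 1b of a sample had a chi-square per degree of freedom between 63.5 and 328.5 over genes with at least 10 counts, far above sampling noise as for other pairs, and were kept apart. Totals were 5753476 to 29984954 counts, and the spread between libraries was far above what sampling at such totals gives. Reads carry no molecular identifiers. Same-numbered libraries deviated together (every correlation across genes over 0.1) in WT blood over time (0.117 to 0.591), αD KO-labelled lung over time (0.168 to 0.421), the genotypes in blood at 0h (0.245 to 0.750), and lung against blood in WT at 0h (0.109 to 0.749), WT at 12 hours (0.173 to 0.331) and αD KO-labelled mice at 12 hours (0.144 to 0.344). The pairing comes from this check and not from the labels. Named genes are the 9, the list genes called (at most 6, or the 3 largest rises and falls) and the 3 nearest patterns for each, of which 1 is not reported here. Sequences are from RefSeq and GENCODE.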

Additional observations from a re-analysis of the deposited data

Results flagged for a closer look

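The change at 12 hours in lung differed between αD KO-labelled and WT mice for Stfa3 (log2 difference -6.45 ± 1.73 SE, DESeq2 adjusted p = 0.0247) and for Serpinb1a (-4.50 ± 1.33, DESeq2 adjusted p = 0.0399), by the interaction term. EdgeR gave an adjusted p of 0.41 for both. These values rest on αD KO-labelled lung, where library 2 of 0h and libraries 1a and 2 of 12h stand apart from their time label. Groups of 3 are too small for a separate test of a library far from the others. The check for outlying counts within DESeq2 gave no p for Stfa2 and BC100530 in WT lung over time, Stfa3 and BC100530 in WT lung against blood at 12 hours, and Stfa2 in lung between the genotypes at 12 hours and in the interaction, so the DESeq2 counts there leave these genes out.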

How the results depend on the processing

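Among the genes called or without overlap, 363 of the log2 fold changes recomputed under an alternative kept direction and side of the threshold, 63 dropped below it, 50 passed it and 0 changed direction in these fits on counts. On the TPM scale, which was not among them, 1 did, Stfa2l1 in WT lung over time (0.81 with TMM factors and -0.18 in TPM). Over all values of the 9 genes under the alternatives, 184 of 2373 had the opposite sign, and 3 of these were called, all without library 1b in WT, which were Stfa2 and Stfa3 in lung against blood at 12 hours, given above, and Stfa2 in the tissue difference of the 12 hour change (0.43 with all libraries and -2.01 without 1b, edgeR adjusted p = 0.0371). The number of the 9 genes called moved as follows, with the percent of all genes called in the same fit in parentheses. In WT blood over time, 4 (13.5%) became 7 (22.8%) with DESeq2, 7 (15.9%) with the files of sample 1 summed, 7 (23.1%) without library 1b of both times, and 0 to 6 (0.00999% to 18.4%) with a single library left out. In WT lung over time, 5 (9.02%) became 3 (1.65%) with all 8 groups in a single fit, 6 (37.2%) without library 1b and 0 to 6 (0.0% to 25.3%) with a library left out. In αD KO-labelled blood over time, 3 (8.75%) became 5 (4.05%) with no filter on low counts, 5 (12.3%) with DESeq2, 5 (9.86%) with the replicate block, 0 (0.236%) with all 8 groups in a single fit and 0 to 2 (0.456% to 8.74%) with a library left out. In αD KO-labelled lung over time, 0 (0.0%) became 4 (1.41%) without the 3 libraries that stand apart, which is no test, since those were set aside for their place between the times and 1 library of 12h was left. For the genotypes in lung at 12 hours, 0 (0.0%) became 5 (30.1%) without library 1b. For lung against blood at 12 hours in WT, 0 (0.0442%) became 1 with no filter (1.59%), with DESeq2 (7.23%) and with the replicate block (3.02%), 5 (28.2%) without library 1b and 0 to 2 (at most 20.2%) with a library left out. In αD KO-labelled mice, 0 (0.0548%) became 1 with no filter (3.13%), with DESeq2 (7.35%) and with summed files (8.27%), 3 (34.3%) without library 1b and 0 to 3 (at most 11.2%) with a library left out. The interaction of genotype in lung gave 2 (2.7%) with DESeq2 and 4 (13.2%) without library 1b, and that of tissue in WT gave 1 (7.41%) without library 1b, each from 0 (0.0%). The cause was not tested. Where the libraries were not shown to pair, the block also called BC100530 in WT lung (log2 fold change 2.49, edgeR adjusted p = 0.000604) and Serpinb1a (3.44, edgeR adjusted p = 0.0105) and Wfdc17 (2.09, edgeR adjusted p = 0.0404) in αD KO-labelled blood, and it changed no call other than these and those given above. The limits given above for the block fit hold here too, and its share of all genes in WT lung is not given. TPM rises by 0.714% to 2.78% when the 9 genes are left out of the sum. Depth limits Stfa3 at the baseline, with 0 to 6 counts in WT blood and lung libraries.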
